A study of Mus musculus with 24 samples.

Results

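The genes described here encode 8 receptors for neurotrophic factors: the receptor tyrosine kinase gene Ret, the co-receptor genes Gfra1, Gfra2 and Gfra3, the p75 neurotrophin receptor gene Ngfr, and the cytokine receptor genes Lifr, Cntfr and Il6st. They were chosen by name, as all probes to which the platform annotation gives one of these symbols, and each gene is shown by its probe of highest mean signal. They make up 8 of the 19057 gene symbols and 17 of the 45281 probes on the array. The study hybridised 24 Illumina mouse bead arrays, each with 1 dye, to RNA of FVB mice at postnatal day 4. SMA mice were compared with wild-type (WT) mice. The SMA mice are read here as a model of spinal muscular atrophy, a motor neuron disease with reduced survival motor neuron protein. The 8 groups of 3 arrays were WT and SMA medial motor column (MMC) of the spinal cord, WT and SMA lateral motor column (LMC), WT and SMA dorsal root ganglion (DRG), and WT and SMA raphe. The allele of the SMA mice, the way the cells were collected and whether animals were pooled are not given in the sources used here. The design text calls the replicates biological.

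GDNF family ligands bind a GFRA co-receptor on the cell surface, and the complex activates RET; GFRA1 prefers GDNF, GFRA2 neurturin and GFRA3 artemin. GDNF is a survival factor for motor neurons, and RET signalling also serves sets of sensory neurons. The p75 receptor binds all neurotrophins and is present on developing motor neurons and on many sensory neurons and glia. Ciliary neurotrophic factor binds CNTFR, which recruits LIFR and gp130, the product of Il6st; this pair also transmits leukaemia inhibitory factor, and the signal runs through JAK kinases to STAT3.

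Each array had 33.7 to 49.7% of its probes above background, that is, with a detection p under 0.05. SMA LMC replicate 2 had the lowest share of the 24 arrays and a mean correlation of 0.851 with the other arrays of its group. WT MMC replicate 3, with 38.2% above background, had a nearly equal mean correlation of 0.854. Pairs of WT MMC arrays correlated at 0.831 to 0.911. The SMA minus WT differences of the receptors in LMC are also given without SMA LMC replicate 2. Smn1, the gene of the survival motor neuron protein, was detected in 12 of 12 WT samples and 0 of 12 SMA samples. With the normalization used here it was at least 21.7-fold lower in SMA in each tissue. Listed markers of the labelled tissue were present in WT mice: 8 of 8 motor neuron markers in each motor column, 5 of 7 sensory neuron markers in DRG and 4 of 5 serotonergic markers in raphe. The summed motor neuron list did not set the columns apart from DRG, where 5 of 8 were present as well. Its summed level had a median of 12.85 in WT DRG, 12.35 in WT MMC and 12.66 in WT LMC. The members went different ways. Prph, Isl1 and Isl2 had their highest WT means in DRG, Prph at 12.21. Mnx1, Slc5a7 and Slc18a3 were not above background on any WT DRG array, and Chat and Ache were lower there. Mnx1 was at 10.25 in WT MMC, 9.25 in WT LMC and 4.56 in WT DRG. Glial markers were present too, and the WT level of the myelin gene Mbp was 11.32 in MMC against 8.44 in LMC. All arrays of a tissue lay on 1 slide, so tissue and slide cannot be told apart, nor can genotype and position on the slide. In these bulk samples, fewer cells of a type and less RNA per cell cannot be told apart either.

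Upstream sequence was taken from RefSeq (GRCm38.p6), which matched 5 of the 8 genes. Shown are the 250 bases before the start of Gfra1, whose level was high in the motor columns, and of Ngfr, Lifr (first of 2 listed starts) and Il6st, whose levels were high in DRG. Each is written 5′ to 3′ along the gene, and capitals mark the GC box GGGCGG on either strand. The windows are chr19:58455399-58455648 (minus strand) for Gfra1, chr11:95587699-95587948 (minus) for Ngfr, chr15:7129322-7129571 (plus) for Lifr and chr13:112463820-112464069 (plus) for Il6st.
Gfra1: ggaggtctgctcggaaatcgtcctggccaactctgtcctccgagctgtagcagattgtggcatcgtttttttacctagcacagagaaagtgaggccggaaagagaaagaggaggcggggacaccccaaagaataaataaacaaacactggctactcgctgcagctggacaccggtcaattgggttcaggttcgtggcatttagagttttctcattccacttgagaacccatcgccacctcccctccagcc
Ngfr: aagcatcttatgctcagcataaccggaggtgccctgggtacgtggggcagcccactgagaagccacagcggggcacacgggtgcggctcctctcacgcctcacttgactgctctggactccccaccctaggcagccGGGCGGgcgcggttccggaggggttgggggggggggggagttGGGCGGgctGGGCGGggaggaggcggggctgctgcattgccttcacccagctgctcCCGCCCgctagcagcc
Lifr: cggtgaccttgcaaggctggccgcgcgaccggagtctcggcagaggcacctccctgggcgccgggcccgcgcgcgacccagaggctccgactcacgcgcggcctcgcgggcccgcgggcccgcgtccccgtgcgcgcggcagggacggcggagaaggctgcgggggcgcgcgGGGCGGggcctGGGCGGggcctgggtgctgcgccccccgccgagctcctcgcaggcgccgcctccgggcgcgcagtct
Il6st: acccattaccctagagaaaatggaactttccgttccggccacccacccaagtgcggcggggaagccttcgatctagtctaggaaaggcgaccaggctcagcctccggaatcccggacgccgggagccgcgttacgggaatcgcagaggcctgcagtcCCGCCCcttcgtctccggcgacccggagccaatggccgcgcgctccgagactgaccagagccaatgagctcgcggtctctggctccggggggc
The box occurred 0 times in the Gfra1 window, 4 times in that of Ngfr, 2 times in that of Lifr and 1 time in that of Il6st, against 32.7% of all 32851 windows of this length with at least 1. The STAT element TTCNNNGAA, searched on both strands, occurred in none of the 4 windows and in 7.02% of all windows. The G and C content was 52.4% for Gfra1, 70.4% for Ngfr, 82.4% for Lifr and 66% for Il6st. The window of the second Lifr start, not shown, held 0 GC boxes and 50.8% G and C. Cntfr, also matched and not shown, had 0 to 2 boxes in the windows of its 6 starts. A relation of these counts to tissue levels was not tested.

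In WT mice, 7 of the 8 genes differed among the 4 tissues; Cntfr did not pass the test. Of all genes tested by the same limma F test, 39.6% passed. Ret and Gfra1 were high in both motor columns, Gfra3 was detected in DRG only, and Ngfr, Lifr and Il6st had their highest means in DRG. No tested receptor had its highest mean in raphe. Levels below are normalized log2 signals, on which a difference of 1 is 2-fold, and are compared between tissues and not between genes, since each gene is read by its own probe.

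**Figure D1:**
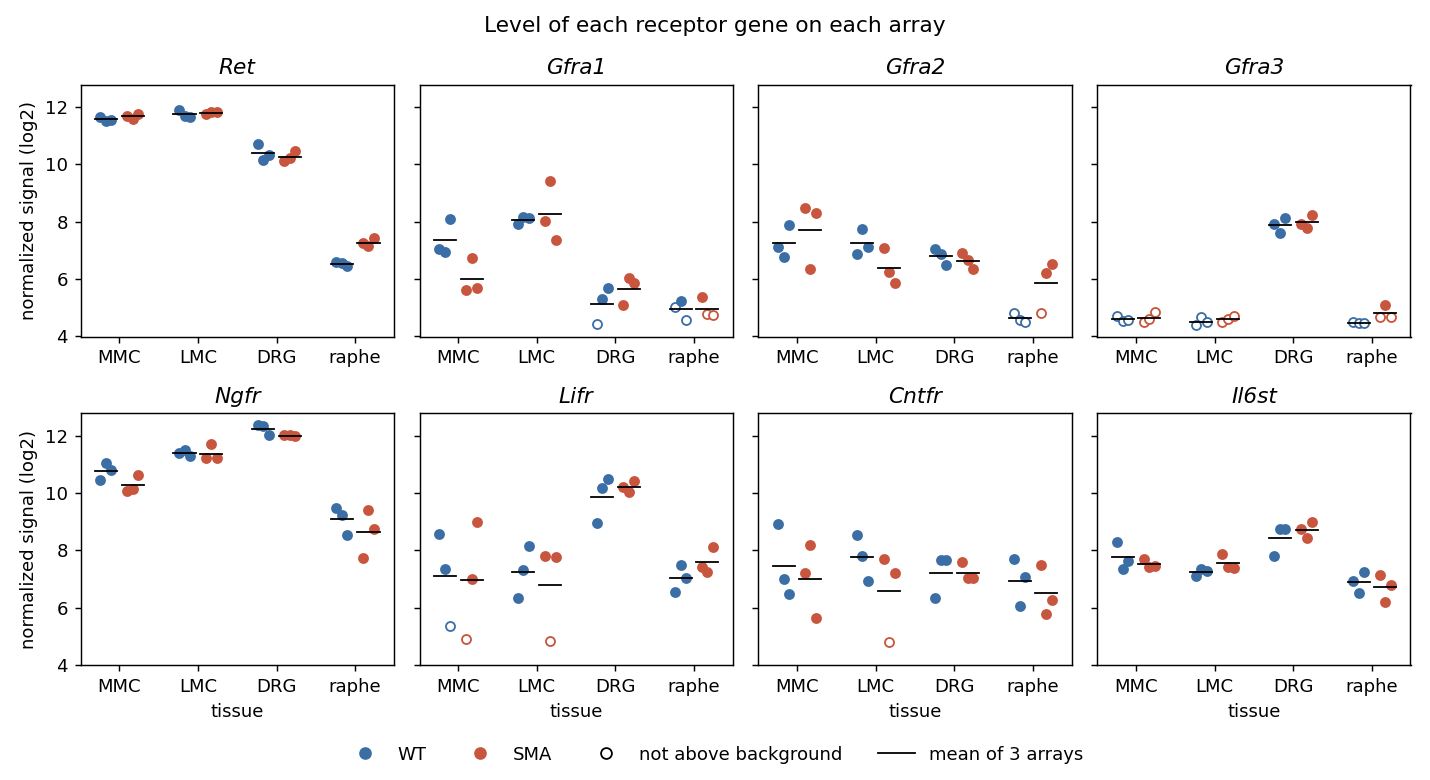
Normalized log2 signal of the 8 receptor genes (vertical axis) by tissue (horizontal axis) on each of the 24 arrays, with the mean of each group of 3 as a bar; blue points are WT, red points SMA, and open points are arrays on which the probe was not above background. Ret lies at 6.45 or higher on every array and lowest in raphe, while Gfra3 stands above background on all 6 DRG arrays and on 1 SMA raphe array.

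Ret was at 11.88, 11.68 and 11.67 on the 3 WT LMC arrays, at 11.66, 11.52 and 11.56 in WT MMC, at 10.73, 10.17 and 10.34 in WT DRG, and at 6.59, 6.56 and 6.45 in WT raphe. The ranges of DRG and raphe lay apart from each other and from those of both columns. Folds depended on the processing. On the authors' deposited log2 values, of unstated normalization, differences of dim groups were smaller. Those values are given beside the genes concerned. The raphe mean was 37.1-fold below that of LMC (log2 difference -5.21, SE 0.163, adjusted p = 2.32e-16; -3.31 on the deposited values) and the DRG mean 2.52-fold below it (-1.33, SE 0.163, adjusted p = 1.63e-06). LMC and MMC, neighbours at the top, did not overlap but differed by 0.17 only (95% confidence interval -0.17 to 0.50, adjusted p = 0.585). A second Ret probe gave the same order of DRG and raphe below the columns, with means of 10.59 in LMC, 10.42 in MMC, 9.10 in DRG and 5.55 in raphe. The remaining probe gave 7.71, 8.43, 6.90 and 4.79, the last not above background.

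Gfra1, the GDNF co-receptor gene with 1 probe, was at 7.93, 8.16 and 8.14 in WT LMC and at 7.04, 6.93 and 8.08 in WT MMC. In WT DRG it was at 4.42, 5.32 and 5.68, the first not above background, and in WT raphe at 5.03, 5.22 and 4.59, with only the second above background. Every motor column array lay above every DRG and raphe array. The DRG mean was 7.68-fold below LMC (-2.94, SE 0.482, adjusted p = 7.67e-05) and 4.63-fold below MMC (adjusted p = 0.00176). On the deposited values these differences were -0.91 and -0.62, and both passed. Between LMC and MMC the difference was 0.73 (interval -0.27 to 1.73, adjusted p = 0.393), and the groups overlapped.

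Gfra2, the neurturin co-receptor gene with 1 probe, was measured on all WT arrays outside raphe, at 6.88, 7.76 and 7.11 in LMC, 7.12, 6.79 and 7.88 in MMC and 7.06, 6.88 and 6.50 in DRG. These 3 tissues overlapped, and no pair of them differed in the test (adjusted p of 0.583 to 0.993). In WT raphe it was not above background on any of the 3 arrays. Set against the higher of the dim probe's own signal and the lowest signal of a probe above background on each array, raphe was at least 4.6-fold lower than MMC (adjusted p = 0.00114), at least 4.57-fold lower than LMC (adjusted p = 0.000668) and at least 3.37-fold lower than DRG (adjusted p = 0.0034). The measured WT means were 4.63 in raphe, 7.26 in MMC, 7.25 in LMC and 6.81 in DRG. The deposited values gave raphe differences of -0.68 from MMC and -0.66 from LMC and a DRG excess over raphe of 0.50, all of which passed. In size they are below the minimum folds above, which hold only for the normalization used here.

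Gfra3, the artemin co-receptor gene, was at 7.92, 7.61 and 8.14 in WT DRG and not above background on any WT array of the other 3 tissues. Its DRG level was at least 6.13-fold that of MMC (adjusted p = 4.07e-10), at least 6.22-fold that of LMC (adjusted p = 2.78e-10) and at least 7.11-fold that of raphe (adjusted p = 2.26e-10). On the deposited values the DRG differences were 0.92, 0.94 and 0.96, and all passed. These are smaller than the minimum folds above, which hold only for the normalization used here. Measured means were 7.89 in DRG, 4.61 in MMC, 4.52 in LMC and 4.49 in raphe. A second, dimmer probe was above background on 2 of 3 WT DRG arrays and on 0 of the other WT arrays. Of the 7 measured sensory neuron markers, Scn10a and Avil were likewise detected in WT DRG only among the WT groups, at 10.22 and 11.28. Trpv1 was above background on 1 WT array, a DRG array, and Runx3 on none. Pvalb, Pou4f1 and P2rx3 were not confined to DRG. Pvalb was above background on every array of both WT motor columns. Pou4f1 had a WT mean of 9.99 for raphe beside 10.73 for DRG, and P2rx3 was detected on 1 WT raphe array.

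Ngfr was at 12.38, 12.33 and 12.03 in WT DRG, 11.40, 11.50 and 11.31 in WT LMC, 10.46, 11.06 and 10.80 in WT MMC and 9.48, 9.24 and 8.53 in WT raphe. No 2 of these ranges overlapped. DRG exceeded raphe 8.94-fold (3.16, SE 0.294, adjusted p = 2.38e-08) and MMC 2.77-fold (1.47, SE 0.294, adjusted p = 0.000765), the second of which was 0.86 with median scaling of the arrays and did not pass (adjusted p = 0.0821). The smaller step from LMC to DRG (0.84, SE 0.294, adjusted p = 0.041) passed in 5 of 14 other settings, was 0.14 with median scaling of the arrays, and did not pass without any 1 of the 6 arrays (0.78 to 0.95, adjusted p of 0.0575 to 0.116). LMC against MMC did not pass (0.63, adjusted p = 0.22). The other 2 Ngfr probes were above background on 5 and on 4 of the 24 arrays, all of them DRG.

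Lifr was at 8.95, 10.18 and 10.48 in WT DRG, 6.33, 7.30 and 8.14 in WT LMC, 8.57, 7.36 and 5.35 in WT MMC, where the last was not above background, and 6.54, 7.48 and 7.04 in WT raphe. All 3 DRG arrays lay above all other WT arrays, and the other tissues overlapped. DRG was 7.23-fold above raphe (2.85, SE 0.861, adjusted p = 0.0201), 6.85-fold above MMC (adjusted p = 0.0244) and 6.12-fold above LMC (adjusted p = 0.03). The call against LMC held in 8 of 14 other settings, that against raphe in 10 and that against MMC in 11; leaving out WT DRG replicate 2 or 3 ended all 3 calls (adjusted p of 0.0687 to 0.119) and that of the F test (0.104 and 0.125). Single calls were also lost without WT MMC replicate 3 (against MMC, adjusted p = 0.153), WT LMC replicate 1 or 2 (against LMC, 0.133 and 0.0672) and WT raphe replicate 1 or 3 (against raphe, 0.0758 and 0.0556). The deposited values gave 1.63 over raphe, 1.504 over MMC and 1.52 over LMC, and all passed. Both other Lifr probes also had their highest mean in DRG, at 8.51 and 9.47.

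Il6st was at 7.81, 8.75 and 8.75 in WT DRG, 8.29, 7.36 and 7.62 in WT MMC, 6.94, 6.50 and 7.24 in WT raphe, and 7.11, 7.33 and 7.27 in WT LMC. DRG lay above LMC (1.20, SE 0.35, adjusted p = 0.015) and raphe (1.54, SE 0.35, adjusted p = 0.0023) without overlap (0.58 and 0.69 on the deposited values), but overlapped MMC (0.68, adjusted p = 0.184). That last difference passed with the mean of all detected probes (1.05, adjusted p = 0.00843) and with array weights (1.05, adjusted p = 0.015). Leaving out WT DRG replicate 2 or 3, or WT LMC replicate 1, ended the call against LMC, with adjusted p of 0.0536 to 0.0814. A second Il6st probe gave 7.87 in DRG, 6.45 in MMC, 6.32 in LMC and 5.40 in raphe. Cntfr was at 8.53, 7.81 and 6.93 in WT LMC, 8.91, 7.01 and 6.47 in WT MMC, 6.34, 7.66 and 7.68 in WT DRG and 7.71, 6.05 and 7.07 in WT raphe. All of its groups overlapped and the F test did not pass (adjusted p = 0.784); its second probe was above background on 0 of 24 arrays.

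Between pairs of WT tissues, receptors passed as follows. LMC against MMC gave 0 of 7 tested receptors by limma, where 3.41% of all genes passed, and 1 receptor (Ngfr) at an unadjusted p under 0.05. DRG against MMC gave 5 of 8, 3 higher and 2 lower in DRG, against 19.9% of all genes. DRG against LMC gave 6 of 8, 4 higher and 2 lower, against 23.2%. Raphe was lower for 4 of 7 receptors both against MMC, where 19.1% of all genes passed, and against LMC, where 30.4% passed. DRG was higher than raphe for 6 of 7, against 20% of all genes. Some of these receptors met the detection filter in 1 of the 2 groups only, which favoured their direction. They were Gfra1 in the columns, Gfra2 against raphe, Gfra3 in DRG, and Lifr in DRG against MMC. The counts are thus not separate support for the pattern. The shares of all genes went through the same filter. WT groups are shared between these comparisons. Ranges did not overlap for 26.3% of all genes tested for LMC against MMC, 33.2% for DRG against MMC and 45.9% for DRG against LMC. The shares were 35% for raphe against MMC, 55% for raphe against LMC and 42.5% for DRG against raphe.

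**Figure D2:**
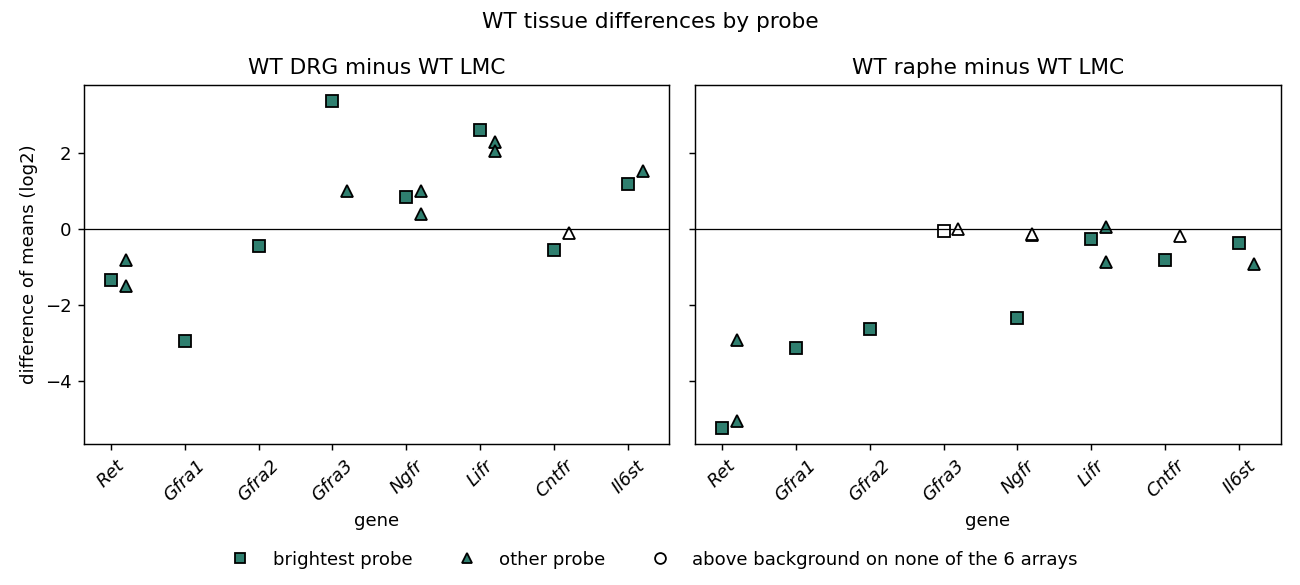
Difference of WT means (log2, vertical axis) for every probe of each receptor gene (horizontal axis), DRG minus LMC at left and raphe minus LMC at right; squares are the brightest probe, triangles the other probes, and open symbols were above background on none of the 6 arrays compared. For DRG minus LMC, the other probes of Ret, Gfra3, Ngfr, Lifr and Il6st lie on the same side of 0 as the brightest one.

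On the SMA arrays, taken alone, the same 7 receptors differed among tissues, where 51.5% of all genes passed; Cntfr again did not (adjusted p = 0.779). The SMA means of Ret were 11.80 in LMC, 11.68 in MMC, 10.27 in DRG and 7.27 in raphe, in the order seen in WT mice. The Gfra2 call (adjusted p = 0.0273) held in 15 of 20 other settings. It was lost with the SMA arrays alone (0.0908) and with array weights (0.0705). It was also lost without SMA MMC replicate 1 (0.143) or 3 (0.127) or SMA raphe replicate 1 (0.0757).

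Related genes were drawn from 75 listed ligands, partners and effectors, 64 of them measured. In the WT F test, 24 of 40 tested passed, or 60%, against 39.6% of all genes. Among ligands, none of the 4 GDNF family ligand genes (Gdnf, Nrtn, Artn and Pspn) was above background on all arrays of any WT group, and of 8 gp130 cytokines only Cntf was, in WT DRG at 5.26 (adjusted p = 0.148). Bdnf, a neurotrophin, was at 7.03 in WT DRG and above background on 0 of 3 WT MMC arrays (adjusted p = 0.00233). Of 8 neurotrophin receptors and p75 partners, 4 passed: Ntrk3, the neurotrophin-3 receptor gene, at 10.20 in MMC and 7.33 in DRG, with Maged1, Rtn4r and Ntrk2. All 3 tested GDNF receptor partners passed, Ncam1 with its highest mean in raphe at 10.02, Sdc3 also in raphe at 12.18, and Sorl1 in LMC at 6.51.

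Of 12 tested RET adaptors and effectors, 9 passed. The docking protein gene Dok4 was at 12.08 in WT DRG against 8.45 in MMC (adjusted p = 1.52e-10), and the adaptor gene Shc1 at 10.59 in DRG against 6.97 in raphe. Other adaptors had their highest mean in raphe, Dok5 at 8.89, Shc3 at 7.45 and Grb10 at 9.95, while Dok1 was highest in DRG at 6.38. In the JAK-STAT list 3 of 7 passed: Stat3, the transcription factor downstream of gp130, at 12.00 in DRG and 10.36 to 10.83 elsewhere, with Ptpn11 and Socs3. Of 8 tested target genes 4 passed, among them the ETS factor genes Etv1, at 11.07 in DRG and 6.45 in MMC, and Etv5, at 10.02 in DRG and 6.87 in LMC, with Gap43 and Dusp6.

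The genes whose levels followed each receptor most closely were ranked by Pearson r over the 24 arrays among 11199 detected genes; arrays of a tissue share a slide, so these values describe shared tissue patterns. Ret went with Hoxc10 (r = 0.988), Hoxd9 (0.982) and Cplx1 (0.972), and Gfra3 with Avil (0.992), Myo1a (0.991) and Tmem45b (0.991). Ngfr went with Anxa7 (0.956), Capn1 (0.949) and Myadm (0.945), and Gfra1 with B3galt5 (0.938), Lzts3 (0.918) and Mtres1 (0.915). Il6st went with Prune2 (0.899), Tmod1 (0.873) and Mctp2 (0.865), and Lifr with Nudt4 (0.881), Stat3 (0.88) and Etnk1 (0.85). The values were lower for Gfra2, with Hoxd3os1 (0.801), Cd47 (0.794) and Fahd1 (0.793), and for Cntfr, with Ndufs5-ps (0.726), Cend1 (0.704) and Csl (0.7). Between receptors, r was 0.768 for Ret and Gfra2, 0.702 for Ret and Gfra1, 0.797 for Gfra3 and Lifr and -0.406 for Gfra1 and Lifr.

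No receptor difference between SMA and WT mice passed the limma test in any tissue. Receptors tested were 6 in MMC, where 1.3% of all genes passed, 7 in LMC, where 0.022% passed, 8 in DRG, where 0.0101% passed, and 5 in raphe, where 0.244% passed. At an unadjusted p under 0.05 there was 1 receptor in MMC (Gfra1), 1 in raphe (Ret) and 0 in LMC and DRG, where the share of all genes at that level was 14.7% in MMC, 6.87% in raphe, 6.86% in LMC and 1.43% in DRG. Also 0 of 8 passed for the mean of the 4 differences (0.0536% of all genes) and for a difference among tissues (0.0625%), and 0 of 7 for MMC against LMC (0.0206%); at an unadjusted p under 0.05 these gave Ret, Ret and Gfra1. Over the receptors tested, the median difference was -0.34 for MMC, -0.03 for LMC, 0.04 for DRG and -0.18 for raphe, beside 0.06, 0.03, -0.03 and -0.02 over all genes.

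**Figure D3:**
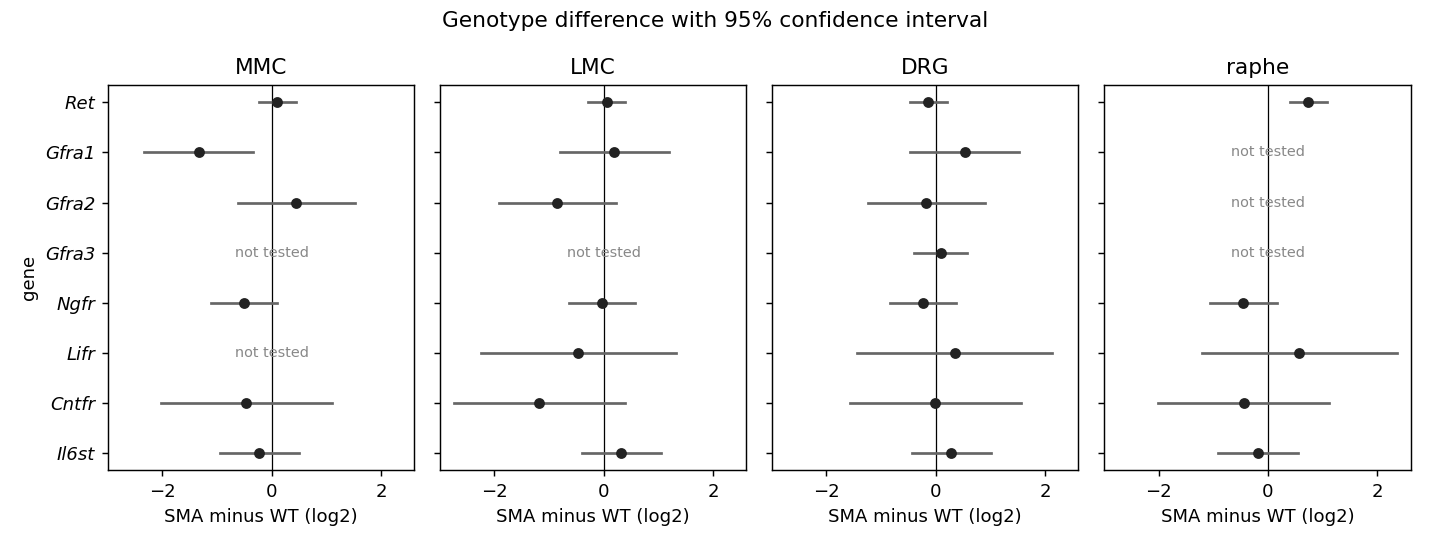
SMA minus WT difference of each receptor gene (log2, horizontal axis) in the 4 tissues, with the 95% confidence interval as a line; genes not above background on all 3 arrays of either group are marked as not tested. The intervals of Ret in raphe (0.40 to 1.08) and of Gfra1 in MMC (-2.33 to -0.34) do not include 0, and neither gene passed after adjustment over all genes.

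Ret in raphe came nearest to the threshold. It was at 7.25, 7.14 and 7.42 on the SMA raphe arrays against 6.59, 6.56 and 6.45 in WT. The genotypes did not overlap, as for 14.5% of all genes tested in raphe. The difference was 0.74 (1.67-fold, SE 0.163, adjusted p = 0.0569), and it passed in 1 of 15 other settings, with array weights (adjusted p = 0.0258). Its size depended on the processing. Over those settings it ran from 0.248 to 0.803, with adjusted p up to 0.778. With 1 array left out it stayed at 0.664 to 0.803. A second probe, above background on all 6 arrays, gave 0.74 as well, with means of 6.28 and 5.55, and the remaining probe was above background on 1 of 6. The summed level of the 5 measured serotonergic markers moved with it, at 13.05, 13.14 and 13.44 in SMA raphe against 12.28, 12.84 and 12.62 in WT. All 4 tested markers (Tph2, Slc6a4, Ddc and Slc18a2) had differences above 0, with a median of 0.63, and 0 passed; Gata3 was not above background. The summed level of 6 endothelial markers was lower in SMA raphe, at 10.54 to 10.76 against 10.83 to 11.24. The part of either marker level in the Ret value was not tested. In the other tissues the Ret difference was 0.10 in MMC (interval -0.24 to 0.44), 0.06 in LMC (-0.28 to 0.39; 0.045 without SMA LMC replicate 2) and -0.14 in DRG (-0.48 to 0.20). The probes did not give 1 direction there: the second probe gave 0.27, -0.17 and -0.21, and the remaining one -0.79, -1.06 and 0.63.

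**Figure D4:**
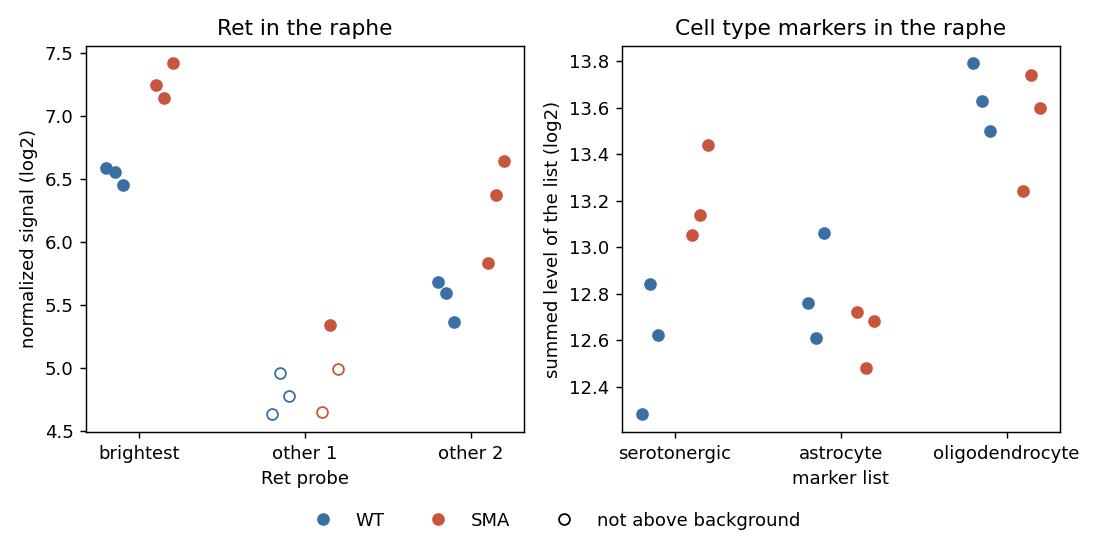
Left, normalized log2 signal of the 3 Ret probes on the 6 raphe arrays; right, log2 of the summed signal of the measured markers of 3 cell types on the same arrays, with WT in blue, SMA in red and arrays not above background as open points (left panel only). SMA lies above WT for the brightest Ret probe (7.14 to 7.42 against 6.45 to 6.59) and for the serotonergic sum (13.05 to 13.44 against 12.28 to 12.84).

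Gfra1 in MMC was at 5.63, 6.73 and 5.70 in SMA against 7.04, 6.93 and 8.08 in WT. All SMA arrays were below all WT arrays, and 14.7% of all genes tested in MMC likewise did not overlap. The Gfra1 difference was -1.33 (2.52-fold, SE 0.482, interval -2.33 to -0.34, adjusted p = 0.185). It passed in 0 of 15 other settings, over which it ran from -1.686 to -0.426. With 1 array left out it ran from -1.686 to -0.967. In LMC the levels were 8.04, 9.41 and 7.36 in SMA against 7.93, 8.16 and 8.14 in WT, a difference of 0.19 that was -0.38 without SMA LMC replicate 2. The difference between the 2 columns was -1.52 (interval -2.93 to -0.11, adjusted p = 0.503), and it was -0.95 (adjusted p = 0.83) without SMA LMC replicate 2. In MMC, 6 of 8 motor neuron markers had differences above 0 and 0 of 8 passed; their summed level was 12.32 to 12.49 in SMA and 12.29 to 12.61 in WT. Of 5 fibroblast and meningeal markers the summed level was 10.13 to 10.59 in SMA MMC and 10.73 to 11.43 in WT MMC, and 0 of the 2 tested passed. These 2 went opposite ways: Pdgfra was at 9.68 in SMA and 10.64 in WT, and Col1a2 at 8.46 in SMA and 8.09 in WT, so the sum did not show a common shift of the list. Pdgfra had the highest MMC level of the list and so the largest share of its sum. Among WT tissues Pdgfra was lowest in DRG (7.1), where Col1a1, Col1a2, Dcn and Lum were highest. The part of these marker levels in the Gfra1 value was not tested. In DRG the Gfra1 difference was 0.53 (interval -0.47 to 1.53), and in raphe it was above background on 1 of 3 arrays of each genotype and was not tested.

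Gfra2 was at 8.47, 6.35 and 8.32 in SMA MMC, overlapping WT (0.45, interval -0.62 to 1.52), and at 7.07, 6.26 and 5.87 in SMA LMC (-0.85, interval -1.92 to 0.22; -0.78 without replicate 2). In DRG the difference was -0.18. In raphe it was above background on 2 of 3 SMA arrays, at 6.21 and 6.53, and on 0 of 3 WT arrays, and was not tested. Gfra3 was at 7.92, 7.77 and 8.24 in SMA DRG, a difference of 0.09 (interval -0.40 to 0.58). Outside DRG it was above background on 1 SMA array, in raphe.

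Ngfr had a difference below 0 in every tissue, of -0.50 for MMC, -0.03 for LMC, -0.24 for DRG and -0.45 for raphe. Without SMA LMC replicate 2 the LMC value was -0.19. The SMA DRG arrays, at 12.01, 12.03 and 11.98, were all below the WT DRG arrays, where 8.64% of all genes tested did not overlap. The mean of the 4 differences was -0.30 (SE 0.147, adjusted p = 0.795). In LMC the sign turned with median scaling (0.14) and in raphe without SMA raphe replicate 1 (0.001).

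Among the cytokine receptors, the SMA LMC arrays of Il6st, at 7.86, 7.42 and 7.40, were all above WT LMC (0.32, interval -0.40 to 1.04, and 0.39 without replicate 2). In LMC, 10.3% of all genes tested did not overlap. Il6st differences were -0.22 in MMC, 0.28 in DRG and -0.18 in raphe. Lifr was at 10.21, 10.02 and 10.43 in SMA DRG (0.35, interval -1.44 to 2.13), with 0.57 in raphe and -0.46 in LMC; the LMC value was 0.53 without SMA LMC replicate 2, on which it was not above background. In MMC, the shown Lifr probe was above background on 2 of 3 arrays of each genotype and was not tested. The other 2 Lifr probes were above background on all 24 arrays, and gave -1.40 (5.52 in SMA, 6.92 in WT) and -0.59 (6.57 and 7.16) in MMC, also not tested. Cntfr differed by -1.18 in LMC (interval -2.74 to 0.39), with SMA LMC replicate 2 at 4.82, not above background, and by -0.29 without that array. Its differences in MMC, DRG and raphe were -0.46, -0.01 and -0.44.

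Among the related genes, 1 of 31 tested passed in MMC and 0 of 31, 37 and 31 in LMC, DRG and raphe; at an unadjusted p under 0.05 there were 7, 2, 2 and 4, beside 14.7, 6.86, 1.43 and 6.87% of all genes. The gene that passed was Sort1, encoding sortilin, a partner of p75 in proneurotrophin binding, at a mean of 10.41 ± 0.0826 (SD, n = 3) in SMA MMC and 11.05 ± 0.197 in WT MMC. All 3 SMA arrays were lower (-0.64, SE 0.149, adjusted p = 0.0322), and it passed in 5 of 15 other settings (adjusted p up to 0.328). The call was lost when WT MMC replicate 3 was left out (-0.53, adjusted p = 0.105), or SMA MMC replicate 1 (0.0927) or 3 (0.0731). The sum of the fibroblast and meningeal list given above was lower in the same SMA arrays, and its part was not tested. Pdgfra had the largest share of that sum, and the 2 tested members of the list went opposite ways. Elsewhere Sort1 differed by 0.11 (LMC), 0.07 (DRG) and -0.21 (raphe). The LMC values of the related genes include SMA LMC replicate 2 and are not given without it. Etv1 had differences of -1.17 in MMC, -1.35 in LMC and -1.42 in raphe, none of which passed (adjusted p of 0.246, 0.709 and 0.372), and -0.12 in DRG (adjusted p = 1). Traf6, an adaptor of p75 signalling, was at 8.81 in SMA raphe against 6.72 in WT (2.09, SE 0.524, adjusted p = 0.125), and Ncam1, an alternative GDNF receptor partner, at 9.38 in SMA MMC against 8.54 in WT (0.85, adjusted p = 0.16).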

How the data were processed

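Per the file headers, the authors deposited a signal intensity with its detection p-value per probe, and a second table on a log2 scale of unstated normalization; GenomeStudio is named in the submitters' processing notes. The deposited intensity values reached below 0, as they do after background subtraction. Per the labels' protocols, RNA was prepared and amplified with kits for very small samples.

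Signals were corrected by normexp (offset 16, with control statistics inferred from detection), quantile normalized and put on a log2 scale with limma 3.58.1 in R 4.3.3. Each gene was represented by its brightest probe. Testing required detection (p under 0.05) in all 3 samples of either group compared, or of any group in tests over several. A model with 1 mean per group and 16 residual degrees of freedom was fitted to all 24 arrays, with a mean-variance trend. P-values, two-sided, were adjusted by Benjamini-Hochberg over all genes tested, with a threshold of 0.05. The step was tested on simulated data. Alternatives covered the deposited values, offset, scaling, filter, probe choice, array weights, trend, arrays fitted, a replicate block and each array left out.

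The members and lists were chosen with earlier results of these data known. The text names all 8 members, the list genes that passed (up to 6 by p, otherwise up to 2) and the 3 genes most like each member. Same-numbered WT and SMA arrays of a tissue were checked for pairing: 2 of 12 pairs had deviations correlated above 0.1 (range -0.092 to 0.323), so numbers were not taken to pair arrays. Precision is limited by 3 arrays per group.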

Additional observations from a re-analysis of the deposited data

How the results depend on the processing

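The receptor counts of 0 for SMA against WT held in every setting run, except that array weights gave 1 in raphe (Ret). For all genes, the MMC count of 114 became 50 without a detection filter, 35 with array weights and 5 with the arrays of the 2 groups alone; that of 2 in LMC became 4 with an offset of 50, 4 with array weights and 1 with the groups alone; that of 1 in DRG became 7 with array weights; that of 23 in raphe became 37 with the deposited values, 47 with array weights and 10 with the groups alone. The mean of the 4 differences, at 6, became 15 with array weights, and the difference among tissues, at 7, became 14 with the mean of all detected probes and 15 with array weights. The 2 genes for MMC against LMC became 4 with an offset of 50, 4 with median scaling, 4 with array weights, and 0 without the mean-variance trend or with the groups alone. With the replicate number as a block, counts were 50 in MMC, 1 in LMC, 8 in raphe and 2 for the difference among tissues; no receptor call changed, Sort1 in MMC no longer passed (adjusted p = 0.0802), and 5 of 12 WT arrays correlated best with the SMA array of their own number. Leaving out 1 array gave 94 to 277 genes in MMC, 2 to 25 in LMC, 1 to 3 in DRG, 7 to 37 in raphe, 6 to 10 for the mean, 1 to 13 for the difference among tissues and 0 to 11 for MMC against LMC. WT receptor counts were 3 to 5 for DRG against LMC with 1 array left out.

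Signs turned for small differences that passed in no setting. With the mean of all detected probes, Ret was -0.14 in MMC, -0.39 in LMC and 0.09 in DRG, Ngfr 0.031 in LMC, Lifr -0.06 in the mean and -0.42 for MMC against LMC, and WT LMC against MMC gave Ret -0.13 and Lifr -0.094. With array weights, LMC gave Gfra1 -0.25 and Lifr 0.20, MMC against LMC gave Lifr -0.40, WT LMC against MMC Gfra2 0.29 and WT DRG against MMC Cntfr 0.17. Median scaling gave Ngfr 0.14 in LMC, Gfra3 -0.037 in DRG, Il6st -0.003 in the mean, WT LMC against MMC Gfra2 0.042 and WT raphe against MMC Lifr 0.017. The deposited values gave WT LMC against MMC Lifr -0.018. The cause was not tested. Leaving out 1 array, ranges that cross 0 were, for SMA against WT, in MMC Cntfr -1.05 to 0.26, Il6st -0.42 to 0.042; in LMC Gfra1 -0.38 to 0.65, Ngfr -0.19 to 0.054, Lifr -0.97 to 0.53; in DRG Ret -0.26 to 0.015, Gfra3 -0.05 to 0.21, Lifr -0.11 to 0.65, Cntfr -0.45 to 0.22, Il6st -0.03 to 0.44; in raphe Ngfr -0.83 to 0.001 and Il6st -0.40 to 0.08; in the mean Lifr -0.17 to 0.34, Il6st -0.029 to 0.12; and for MMC against LMC Ret -0.025 to 0.097, Lifr -0.67 to 1.37, Cntfr -0.17 to 1.44. For WT tissues they were, LMC against MMC, Gfra2 -0.27 to 0.30, Lifr -0.71 to 0.90, Cntfr -0.20 to 1.02; DRG against MMC, Cntfr -0.74 to 0.48; raphe against MMC, Lifr -0.95 to 0.66, Cntfr -1.02 to 0.20; raphe against LMC, Lifr -0.70 to 0.20; and DRG against raphe, Cntfr -0.17 to 0.73.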
